A study of Rattus norvegicus with 16 samples.

Results

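Glycolysis splits glucose into pyruvate in the cytosol, and lactate dehydrogenase then exchanges pyruvate and lactate. Photoreceptors of the mammalian retina are known for converting much of their glucose to lactate even when oxygen is present. The pineal gland makes melatonin, and its cells share a developmental and molecular kinship with photoreceptors. Expression of 10 genes of this pathway was examined in rat pineal gland and retina: Hk1, Aldoa, Aldoc, Tpi1, Gapdh, Eno1, Eno2, Pkm, Ldha and Ldhb. Members were all probe sets of an Affymetrix rat array whose annotation gave 1 gene symbol and whose symbol was one of these. Of 8740 probe sets that are not controls, 10 met this rule, and they covered 6 of the 10 genes, among 4736 genes named on the array in this way: Aldoa, Aldoc, Eno1, Hk1, Ldhb and Pkm. Gapdh, Ldha and Tpi1 appeared only on 3 probe sets that also name other genes, so these are reported by probe set and not as the gene. No probe set was annotated to Eno2.

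The 16 arrays carried RNA of pineal gland, with 1 array per condition, and of retina, with 3 arrays per condition. The conditions were titled ZT6, ZT12, CT6 and CT12. ZT stands for Zeitgeber time, which by convention starts at lights on, and CT for circadian time, the hours of the free-running clock; the lighting used is not described. The labels give no strain, age or sex, and nothing tells if numbered arrays are separate animals or if animals were pooled, so the p-values reflect only the spread of these samples, which may be technical. Samples were grouped by their titles, although the labels are not uniform: the source names of the pineal arrays read as retina, the retina arrays numbered 3 carry a source name that includes brain, and the description of the pineal ZT12 array gives hour 6.

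The tissue titles were set against marker genes. Tph1, which starts melatonin synthesis from tryptophan, had intensities of 18774 to 27405 on the pineal arrays, against 13.7 to 247 on the retina arrays. Asmt, the last enzyme of melatonin synthesis, lay between 11357 and 14977 on the pineal arrays and between 68.8 and 689 on the retina arrays. The mean log2 level of the rod markers was 12.58 to 12.82 on the pineal arrays and 14.94 to 15.88 on 11 retina arrays, but 11.52 on the retina array numbered 1 at CT12. That array also had the highest mean level of lens genes, 17.12 log2 units, against 10.72 to 16.99 on the other retina arrays, with retina CT12 array 2 next at 16.99. It therefore stands apart from the retina arrays in markers, and results that rest on it are given with and without it.

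RNA-end controls also differed between the tissues. These control probe sets target the 3′ end, the middle and the 5′ end of one transcript, and a high ratio of 3′ to 5′ intensity marks RNA or labelled product that is short at the 5′ end. For the Gapdh controls, this ratio was 13.7 to 17.9 on the 4 pineal arrays and 1.07 to 1.65 on the 12 retina arrays, or 1.07 to 1.21 without CT12 array 1. For the beta-actin controls the ratio was 5.14 to 8.72 on the pineal arrays and 1.08 to 1.46 on the retina arrays. The pineal minus retina difference in deposited log2 intensity was −2.84 at the Gapdh 3′ end, −5.73 in the middle and −6.60 at the 5′ end. For beta-actin, which is not among the 10 genes examined, it was −4.12, −6.26 and −6.61 in the same order. For hexokinase it was −4.06, −5.92 and −4.59. Low control values in pineal were therefore not particular to Gapdh. For the hexokinase controls the ratio was 0.968 to 8.05 on the pineal arrays and 1.35 to 2.39 on the retina arrays, which overlap. Their pineal values lay under 432, the limit of the filter on low values, except for the 3′ end at CT6 (530). This overlap therefore cannot show how the RNA ends compare. The Gapdh and beta-actin ratios separate the tissues without overlap, so this measure cannot be told apart from the tissue, and its part in the differences below was not tested. In bulk RNA, fewer cells of a type and less RNA per cell cannot be told apart either.

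**Figure D1:**
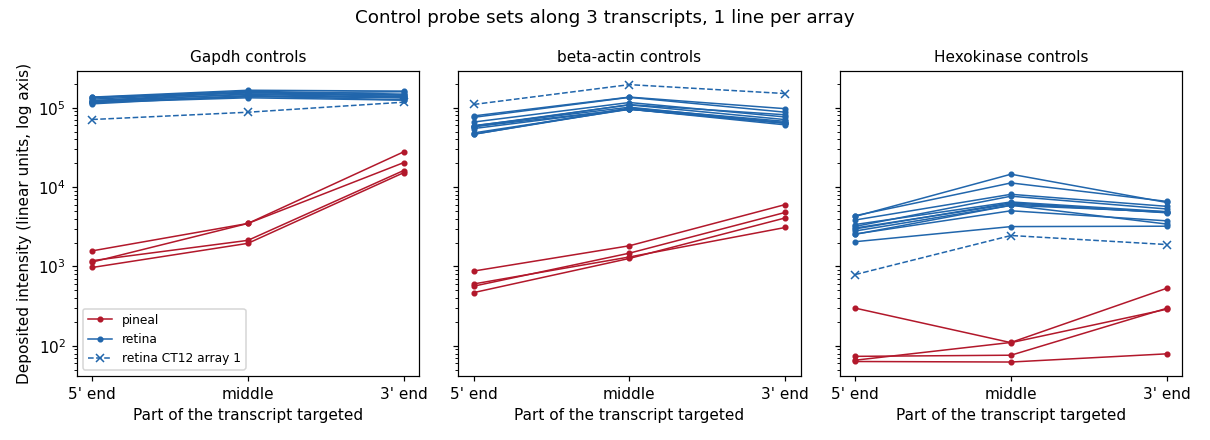
Deposited intensity (log axis) of control probe sets at the 5′ end, middle and 3′ end of Gapdh, beta-actin and hexokinase transcripts, with 1 line per array. Gapdh and beta-actin lines climb towards the 3′ end on all 4 pineal arrays, whereas the 3′ and 5′ ends are within 1.65-fold on the 12 retina arrays, with Gapdh 3′ to 5′ ratios of 13.7 to 17.9 in pineal and 1.07 to 1.65 in retina.

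Across the members, 7 of the 10 probe sets were lower in pineal gland than in retina, 2 were higher and 1 did not pass the test (limma on log2 of intensity plus 16, Benjamini-Hochberg adjustment over 5244 probe sets, threshold 0.05). By the brightest probe set of each gene, Aldoa, Aldoc, Hk1 and Pkm were lower, Ldhb was higher and Eno1 did not pass. This count has to be read against the whole array, because 75.9% of all probe sets tested were called between the tissues, 36.5% lower and 39.4% higher in pineal. The median difference of the 10 members was −2.66 log2 units, against 0.09 for all probe sets tested. The median absolute difference was 2.66 for the members and 1.07 for all. All 10 members passed the filter on low values in both fits, but Aldoa and Aldoc X06984cds_s_at passed the tissue filter only through the retina arrays. Of the other 8 probe sets, 5 were lower.

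**Figure D2:**
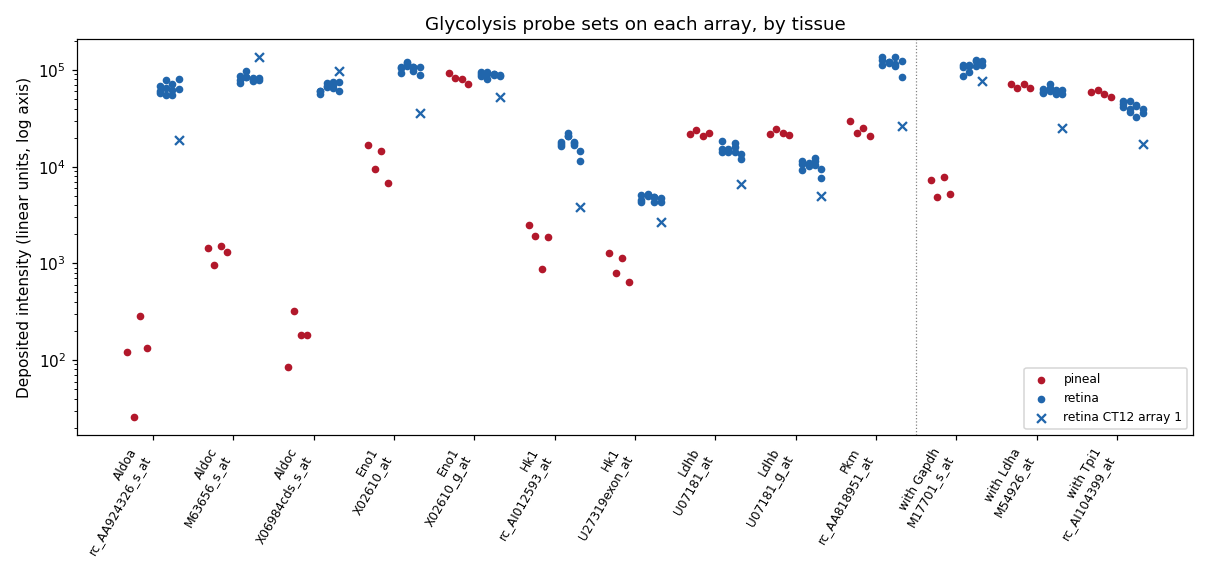
Deposited intensity (log axis) of the 10 member probe sets and, right of the dotted line, the 3 probe sets that share a listed gene with others. Pineal arrays are left of retina arrays in each column, ordered ZT6, ZT12, CT6 and CT12. Aldoa and both Aldoc probe sets show the widest separation, and the cross of retina CT12 array 1 lies below the other retina arrays at most probe sets.

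Upstream sequences are shown for Aldoc, far lower in pineal on both of its probe sets, and for Ldhb, the gene that was higher. They are the 250 bases before the annotated start from RefSeq (GRCr8). Capitals mark GGGCGG, the GC box core, and ACGTG, a form of the core bound by HIF factors, on either strand. Other forms of the HIF core were not searched and are not marked. The Aldoc promoter (chr10:63715294-63715543, plus strand) holds both of these exact motifs. The Ldhb promoter (chr4:177177409-177177658, minus strand) holds neither of them, which does not show that it lacks a HIF core.
Aldoc: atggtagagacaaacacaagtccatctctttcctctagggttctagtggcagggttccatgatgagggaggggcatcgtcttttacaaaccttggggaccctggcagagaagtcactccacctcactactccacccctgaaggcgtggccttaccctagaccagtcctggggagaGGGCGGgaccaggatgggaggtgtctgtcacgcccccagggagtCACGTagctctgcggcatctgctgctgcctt
Ldhb: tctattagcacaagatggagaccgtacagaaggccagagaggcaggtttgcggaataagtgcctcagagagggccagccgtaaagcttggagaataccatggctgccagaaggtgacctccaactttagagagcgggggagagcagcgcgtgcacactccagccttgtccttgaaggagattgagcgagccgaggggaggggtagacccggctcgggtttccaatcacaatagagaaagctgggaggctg
All 6 member genes matched the promoter table, with 10 promoters between them. ACGTG occurred in 3 of the 10 member promoters (1 each of Aldoa, Aldoc and Hk1) and in 16.6% of 33469 rat promoters of the same length. GGGCGG occurred in 5 of the 10, 1 for each gene but Ldhb, and in 30.5% of rat promoters. TAATCC, the core recognised by the photoreceptor and pineal factor CRX, was in 0 of the 10, against 6.34% of rat promoters. These are matches of letters only.

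Aldolases split fructose bisphosphate into trioses, with Aldoa known from muscle and many other tissues and Aldoc from brain. Aldoa (probe set rc_AA924326_s_at) had intensities of 120 at ZT6, 25.7 at ZT12, 285 at CT6 and 134 at CT12 in pineal, against a lowest, median and highest value of 18887, 63374 and 80111 in retina. The pineal arrays all lay far below the lowest retina array. All 4 pineal values were under the filter limit of 432, so Aldoa has only a bound in pineal and is given as at least 135-fold lower there, measured against that limit. The mean normalized log2 level in retina was 15.88 (n = 12). No p-value is printed for this probe set, because its pineal values are only a bound. Its limma call still enters the counts of members called between the tissues. Aldoc, read by its brighter probe set M63656_s_at, had 1456, 969, 1511 and 1301 in the pineal arrays of ZT6, ZT12, CT6 and CT12, against 73306, 83332 and 136146 in retina. The tissues did not overlap, and the difference was −5.69 ± 0.11 log2 units, or 51.5-fold (SE, n = 4 and 12, limma adjusted p = 5.16e-14). The second Aldoc probe set, X06984cds_s_at, lay under the filter limit on all 4 pineal arrays and was at least 153-fold lower.

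Hexokinase 1, which phosphorylates glucose on entry, is represented by 2 probe sets. The brighter one, rc_AI012593_at, had 2498, 1938, 874 and 1895 in pineal arrays of ZT6, ZT12, CT6 and CT12, against 3864, 17385 and 22508 as the lowest, median and highest retina values. Pineal and retina values did not overlap, and the lowest retina value was that of CT12 array 1; the next lowest was 11478. The difference was −2.99 ± 0.30 log2 units, or 7.95-fold lower (SE, n = 4 and 12, limma adjusted p = 4.62e-07). The other Hk1 probe set, U27319exon_at, was also lower, by 3.67-fold, without overlap. Pyruvate kinase, the last step to pyruvate, is encoded by Pkm. Its probe set had 29704, 22175, 25303 and 20821 in pineal, against 26582, 119618 and 136807 in retina. The tissues overlapped only through CT12 array 1, since the next lowest retina array was at 83783. Pkm was 5.06-fold lower in pineal (−2.34 ± 0.32 log2 units, SE, n = 4 and 12, limma adjusted p = 1.11e-05).

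Enolase 1, which converts phosphoglycerate to phosphoenolpyruvate, gave different pictures on its 2 probe sets. X02610_g_at, the brighter one, had 94008, 82466, 81616 and 71878 in pineal, against 52602, 89874 and 95036 in retina, and the tissues overlapped. Its difference was 0.06 ± 0.18 log2 units (95% interval −0.32 to 0.44, limma adjusted p = 0.753). X02610_at had 16687, 9577, 14400 and 6755 in pineal, against 36047, 106514 and 120701 in retina. Those values did not overlap, and the difference was −3.28 ± 0.27 log2 units, 9.73-fold lower in pineal (SE, n = 4 and 12, limma adjusted p = 6.16e-08). Both probe sets carry the same Eno1 annotation, so its tissue difference depends on the probe set that is read. Differences between probe sets of a gene were common. Among 910 genes with at least 2 probe sets past the filter, the median range of tissue differences within a gene was 1.63 log2 units. Of these, 211 genes, 23.2%, had probe sets called in both directions. Eno1 was not among those 211, since X02610_g_at was not called. A range at least as large as the 3.34 of Eno1 was seen in 16.7% of the 910 genes. For the 2.49 of Aldoc the share was 30.1%, for the 1.12 of Hk1 65.9% and for the 0.56 of Ldhb 82.4%. The hour difference within the retina had a median range of 0.181 across the same genes.

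Lactate dehydrogenase subunit B, known from tissues that take up lactate, was the one member gene higher in pineal. The probe set U07181_at had 21724, 23959, 20541 and 22208 in pineal, against 6641, 14644 and 18351 in retina. Deposited values did not overlap, although the normalized values did. The difference was 0.42 ± 0.16 log2 units, 1.34-fold higher (SE, n = 4 and 12, limma adjusted p = 0.0254), and it no longer passed without the pineal CT12 array (0.30, adjusted p = 0.129), without the pineal ZT12 array (0.41, 0.0624) or without the retina arrays numbered 3 (0.44, 0.0571). On the values as deposited it was 0.66 (adjusted p = 0.00329), and under a common median 1.17 (8.44e-06). U07181_g_at was 1.97-fold higher, at 0.98 ± 0.13 log2 units (limma adjusted p = 1.15e-05), with 21568, 24755, 22555 and 21314 in pineal against 4962, 10392 and 12230 in retina.

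The probe sets shared with other genes are given by identifier. M17701_s_at, annotated to Gapdh and 2 further genes, had 7261, 4864, 7780 and 5270 in pineal, against 77400, 111270 and 127952 in retina, a difference of −4.17 ± 0.19 log2 units without overlap (limma adjusted p = 1.69e-10). M54926_at, annotated to Ldha and Ldhal1, had 71760, 64623, 71737 and 65529 in pineal, against 25330, 61098 and 72250 in retina, with overlap and a difference of 0.22 ± 0.21 log2 units (adjusted p = 0.352). For rc_AI104399_at, annotated to Tpi1 and 2 further genes, pineal values of 59359, 62357, 56000 and 52460 stood against 17155, 40362 and 48404 in retina. It was 0.48 ± 0.19 log2 units higher in pineal (limma adjusted p = 0.0357). This call was lost without the condition term (adjusted p = 0.0645), without the filter (0.0525), and without any one of the pineal arrays of ZT12, CT6 and CT12 or the retina arrays ZT6 3, CT6 1, ZT12 1 and ZT12 2 (adjusted p between 0.0503 and 0.131).

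**Figure D3:**
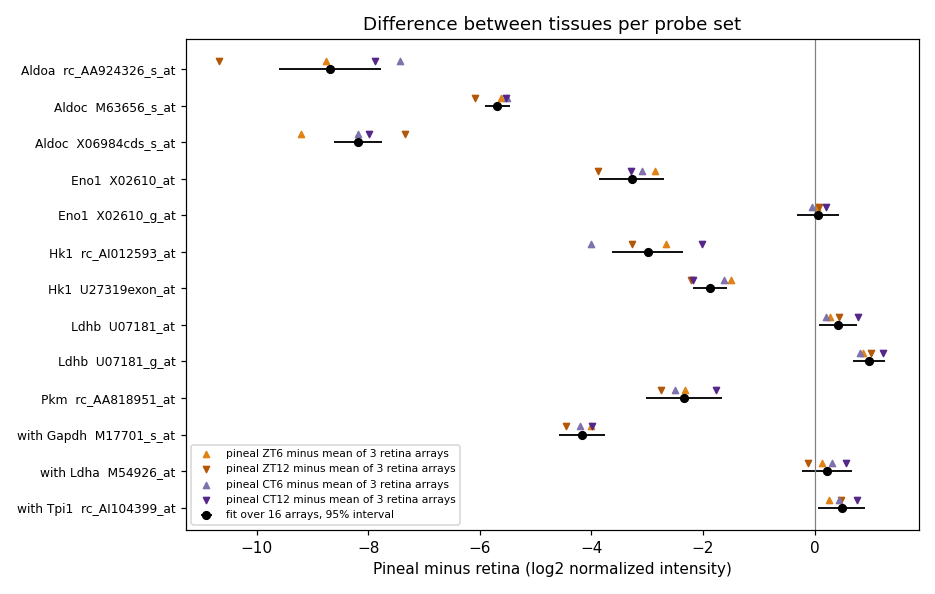
Pineal minus retina difference in log2 normalized intensity per probe set. Black points show the limma estimate over 16 arrays with its 95% interval, and triangles show each pineal array minus the mean of the 3 retina arrays of the same condition. The Aldoa and Aldoc X06984cds_s_at points rest on pineal values under the filter limit and stand for at least 135-fold and 153-fold lower. The intervals of these 2 points are not read. The highest member point is Ldhb U07181_g_at at 0.98, and the triangles of Eno1 X02610_g_at lie on both sides of 0.

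Without retina CT12 array 1, the same numbers of members were called, 9 of 10 probe sets and 5 of 6 genes. Both counts include Aldoa, and the first also Aldoc X06984cds_s_at, whose pineal values were all under the filter limit. The share of all probe sets called without this array is not given here. Hk1 was then −3.12, Pkm −2.46, Ldhb U07181_at 0.34 and Eno1 X02610_g_at −0.03 log2 units. With all 16 arrays, 51.7% of all probe sets tested had tissues that did not overlap in normalized values.

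Isoenzyme pairs were compared within each array. The log2 ratio of Aldoc (M63656_s_at) to Aldoa was 2.25 to 4.97 on the pineal arrays and −0.04 to 2.21 on the retina arrays, or −0.04 to 0.72 without CT12 array 1. No difference or test is drawn from it, because the Aldoa values of the pineal arrays were all under the filter limit. The ratio of Ldhb to M54926_at, the probe set shared by Ldha and Ldhal1, was −1.80 ± 0.22 in pineal and −2.00 ± 0.19 in retina (SD, n = 4 and 12), a difference of 0.20 (exact two-sided permutation p = 0.133). It was 0.41 on the values as deposited, where it passed (adjusted exact permutation p = 0.00391, the smallest this design allows), and 0.76 with the second Ldhb probe set. A common median shifts all log2 values of an array alike, so it returns the same ratio and is not a separate result. These ratios compare changes of 2 probe sets between tissues and not levels of the enzymes.

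In the pineal gland, each condition had 1 array, so hours were compared without a test. Only Aldoa moved by more than 1 log2 unit the same way under both time scales, by −1.94 for ZT12 minus ZT6 and −1.06 for CT12 minus CT6, and all of its values were under the filter limit. For comparison, 137 probe sets, 2.61% of those kept, moved that far the same way. Ldhb U07181_at changed by 0.05 and 0.04 log2 units in these comparisons, and Pkm by −0.51 and −0.39.

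Other genes of the pathway followed a list of 58 genes, of which 45 were on the array and 32 passed the filter. By the brightest probe set, 11 were lower in pineal, 12 were higher and 9 did not pass. Of all probe sets tested, 75.9% were called, 36.5% lower and 39.4% higher. The counts here and in each list below have to be read against these shares. The median difference was −0.27 log2 units against 0.09 for all probe sets tested. Among other glycolytic enzymes, 5 of 7 were lower and 2 higher: Pfkl (−3.41) and Pfkp (−3.14), subunits of phosphofructokinase, and Hk2 (−1.80) were lower, and Pgm1, which links glycogen to glycolysis, was higher by 3.77. Pgm1 also had a probe set called in the other direction, as did Pgam1, Pdha1 and Pc. Transport genes had 3 of 7 lower and 1 higher. Bsg, a partner protein of lactate transporters, was lower by 13.2-fold (−3.73), and the lactate transporters Slc16a1 (−3.26) and Slc16a3 (−1.74) were lower. Of the regulators, 2 of 7 were lower, among them Hif1a (−3.29), and 2 were higher, Pfkfb2 (2.29) and Pfkfb1 (1.80). Of the genes for pyruvate use, 6 of 6 were higher by the brightest probe set, with Dlat, a subunit of pyruvate dehydrogenase, at 2.46. For 2 of these 6, another probe set was called lower. Pdha1 was at 1.08 by its brightest probe set and −2.48 by the other, and Pc at 0.46 and −2.55. Among neighbours of the pathway, 1 of 5 was lower and 1 higher, and the lower one was Tkt, transketolase of the pentose phosphate pathway (−2.02). With the mean of all probe sets of a gene in place of the brightest, Pgm1 was 0.53, Dlat 1.24, Pfkfb2 0.82, Tkt −3.30 and Hk2 −4.57 log2 units. The 3′ to 5′ difference between the tissues was measured on control probe sets only. Its part in the differences of the listed genes was not tested.

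**Figure D4:**
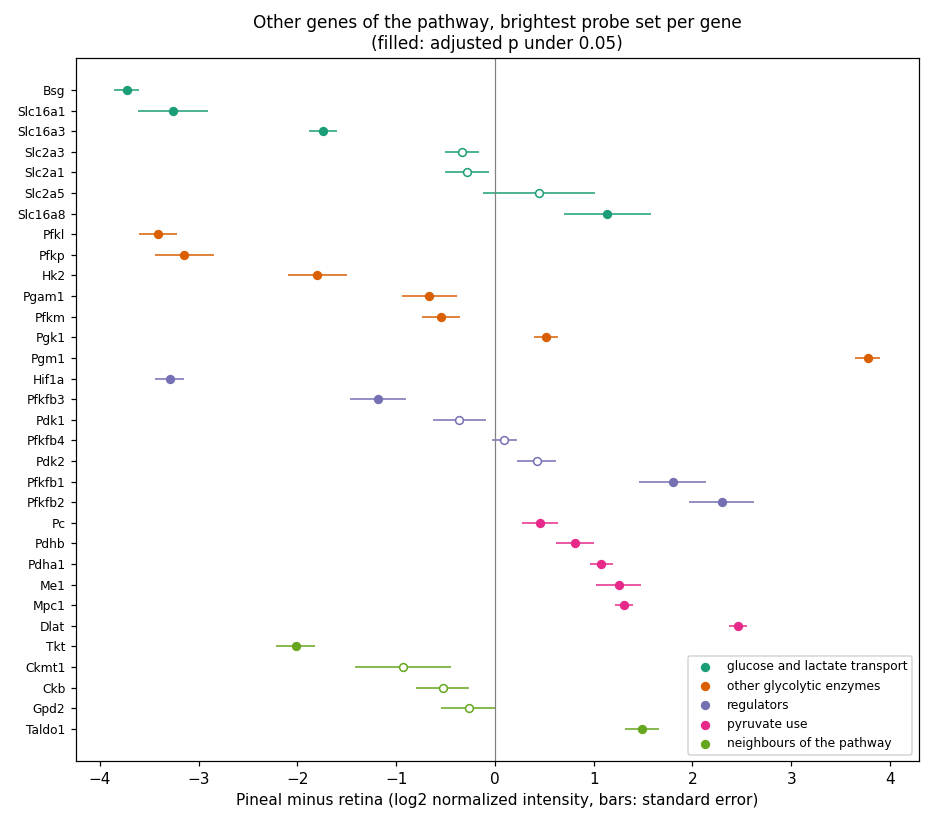
Pineal minus retina difference (log2 normalized intensity) with its standard error for the 32 tested genes of the 58-gene list, coloured by list. Filled points passed the adjusted threshold. Each gene is shown by its brightest probe set. All 6 genes for pyruvate use lie right of 0, although Pdha1 and Pc each had another probe set called lower. Bsg, Slc16a1, Pfkl, Pfkp and Hif1a lie beyond −3.

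Within the retina, none of the 10 member probe sets was called in any of the 7 comparisons. The share of all probe sets called was 0.286% for ZT12 against ZT6, 0.0381% for CT12 against CT6, 0% for CT6 against ZT6, 0.61% for CT12 against ZT12, 0.21% for hour 12 against hour 6 over both time scales, 0% for CT against ZT over both hours and 0.0191% for the difference between the CT and ZT time effects. At an unadjusted p under 0.05, 4 members were below the threshold for CT12 against CT6, 4 for CT12 against ZT12, 1 for CT against ZT, 2 for the difference between time effects and 0 for the rest (limma). The shares of all probe sets at that level were 27.5%, 26.2%, 11.8% and 16.1% for those 4 comparisons in turn. All 10 members were lower at CT12 than at CT6, with a median of −0.58 log2 units against −0.06 for all probe sets, of which 54.1% were lower. On the values as deposited and under a common median, 8 of the 10 were lower, and Aldoc M63656_s_at was at 0.27 and 0.26 (adjusted p = 0.342 and 0.477). Without CT12 array 1, 8 of 10 were lower, with a median of −0.22.

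Hk1 and Pkm had the largest CT12 differences by the brightest probe set of a gene. The Hk1 probe set had 16551, 18046 and 17185 at ZT6, 20634, 20536 and 22508 at ZT12, 17586, 18130 and 16933 at CT6, and 3864, 11478 and 14475 at CT12. On this probe set, the CT12 arrays lay below all others and the ZT12 arrays above all others. The share of all probe sets with such an order is not given here. CT12 minus ZT12 was −1.21 ± 0.34 log2 units (SE, n = 3 each, limma adjusted p = 0.110), and −0.69 without CT12 array 1 (adjusted p = 0.0504). Without CT12 array 3 it passed (−1.54, adjusted p = 0.0184), as did 20.4% of all probe sets. The other Hk1 probe set, U27319exon_at, did not separate the conditions in this way. It had 4328 to 5124 at ZT6, 4934 to 5211 at ZT12, 4297 to 4863 at CT6 and 2672 to 4725 at CT12. Its CT12 minus ZT12 was −0.26 ± 0.16 log2 units (SE, n = 3 each, limma adjusted p = 0.294). Pkm had 113858, 135650 and 127925 at ZT6, 120124, 119112 and 120213 at ZT12, 114354, 136807 and 109272 at CT6, and 26582, 83783 and 124931 at CT12. Its CT12 arrays spread over the widest range, and CT12 minus CT6 was −1.17 ± 0.50 (SE, n = 3 each, limma adjusted p = 0.170), or −0.41 without CT12 array 1. Without CT12 array 3 it passed (−1.74, adjusted p = 0.0261), as did 24.8% of all probe sets. Aldoa, Eno1 and Ldhb likewise had their lowest retina value on CT12 array 1.

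On CT12 array 1, 9 of the 10 member probe sets were below every other retina array after normalization, against 34.9% of all probe sets kept. Deviations from the mean of the other retina arrays were −2.56 log2 units for Pkm, −2.09 and −1.41 for the Eno1 probe sets, −1.92 for Aldoa, −1.92 and −0.50 for Hk1, and −0.80 for Ldhb U07181_g_at, while Ldhb U07181_at stood at 6641 against 12071 to 18351 on the other retina arrays. Aldoc M63656_s_at was the exception, with a deviation of 0.02. Aldoc X06984cds_s_at was lowest on this array after normalization (−0.19), although the deposited values of both Aldoc probe sets, 136146 and 98386, were the highest of the retina arrays. The median deviation of the members was −1.21, against −0.03 for all probe sets kept. The same array had the lens level of 17.12, the rod level of 11.52 and the Gapdh 3′ to 5′ ratio of 1.65 given above, whose part in these deviations was not tested.

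**Figure D5:**
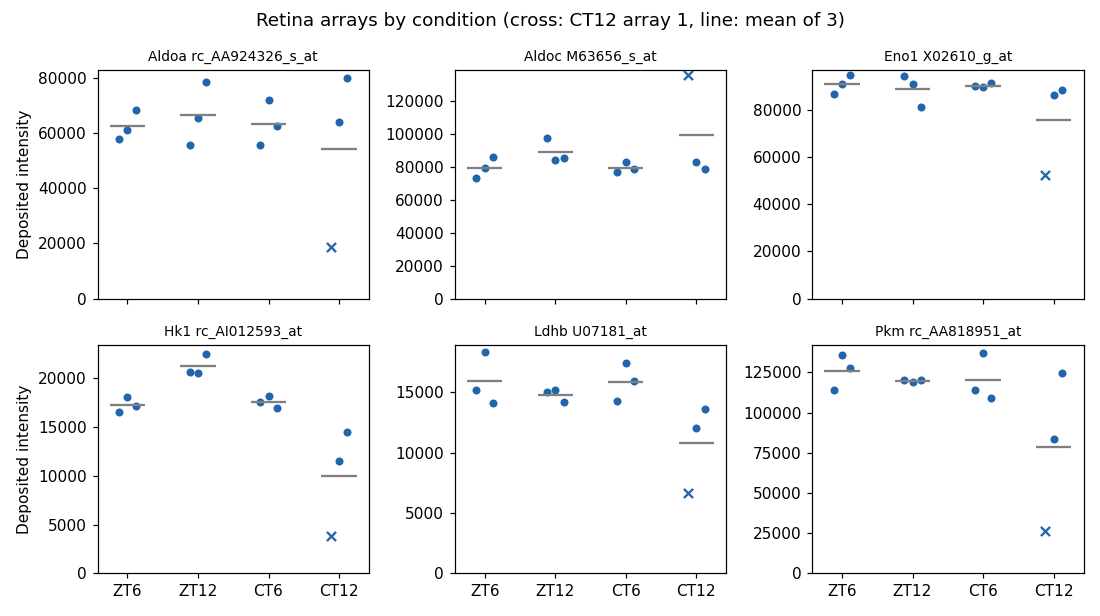
Deposited intensity of the brightest probe set of each member gene on the retina arrays at ZT6, ZT12, CT6 and CT12. Dots are arrays, the cross is CT12 array 1 and the line is the mean of 3 arrays. The cross is lowest for 5 of the 6 genes and highest for Aldoc.

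Genes with the most similar pattern to each member were taken by Spearman correlation over the 12 retina arrays, as a description, since these arrays share tissue and the array that stands apart. For Aldoa they were Zfp180 (rho = 0.88) and Sh3gl3 (0.87), for Aldoc Nsfl1c (0.85) and Rbpms (0.84), for Eno1 Tpd52 (0.97) and Atrx (0.95), for Hk1 Lrba (0.94) and Pcbp4 (0.94), for Ldhb Dtd1 (0.98) and Acsl1 (0.97), and for Pkm Trappc14 (0.90) and Lbh (0.86). Without CT12 array 1 the first gene of each pair had a rho of 0.84, 0.89, 0.96, 0.93, 0.97 and 0.87, in the same order of members. Among the 15 pairs of member genes, rho ranged from 0.18 to 0.68 over the 12 arrays, with a median of 0.35. Without CT12 array 1 rho ranged from −0.06, for Aldoa and Ldhb, to 0.63, with a median of 0.36.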

How the data were processed

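The deposited values are linear probe set intensities from 16 Affymetrix rat arrays. The authors scaled them to nearly the same trimmed mean (2503 to 2506, with 2% trimmed at each end), as the values show; which software, background correction and scaling were used is not given in the sources used here. Arrays give no depth in counts, so their number sets the precision. Values were analysed as log2 of the intensity plus 16, quantile normalized over the arrays of each fit. The 59 control probe sets were left out, and probe sets with a mean at or above the 40th percentile were kept, 5244 in each fit, with a limit of 8.81 log2 units (intensity 432) in the tissue fit and 8.88 in the retina fit. Of the 8740 probe sets without controls, 7006 carried 1 gene symbol, 308 several and 1426 none.

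Pineal was compared with retina with tissue and condition as terms (11 residual degrees of freedom), and the 4 retina groups in a second fit (8 residual degrees of freedom), with limma 3.58.1 in R 4.3.3, two-sided, Benjamini-Hochberg adjusted over all probe sets kept. Ratios were tested with exact permutation tests. Figures were drawn in Python 3.11.15 with matplotlib 3.10.9. The tissue fit and the retina comparison of ZT12 against ZT6 were tested on simulated data. The brightest probe set over the 16 arrays stands for a gene, the pathway list is by gene with those past the threshold named up to 12 by size, and 2 most similar genes are named per member. Members and lists were chosen with earlier results of these data known. The labels do not say if the title numbers pair the arrays. The 18 same-number pairs had deviations correlated between −0.41 and 0.41, which cannot decide it. Alternatives covered the offset, normalization, filter, prior, weights, covariates, probe sets of a gene and each array left out.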

Additional observations from a re-analysis of the deposited data

How the results depend on the processing

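Of 1238 alternative values over 48 results, 1190 kept their direction and their side of the threshold, 39 did not, and 9 changed sign without being called on either side. Those 9 were Eno1 X02610_g_at between the tissues (−0.06 to −0.01) and, at CT12 in the retina, Aldoc M63656_s_at (0.09 to 0.27) and Aldoa (0.02 and 0.03). The 1190 include the tissue differences of Aldoa (27 values) and Aldoc X06984cds_s_at (26), and the Aldoc to Aldoa ratio (23). Those rest on pineal values under the filter limit, so they are not read for stability. The number of member genes called between the tissues stayed between 4 and 6 of 6, and of member probe sets between 8 and 10 of 10. Aldoa entered both counts, and Aldoc X06984cds_s_at entered the second. Arrays scaled to a common median brought Eno1 X02610_g_at to 0.44 log2 units (limma adjusted p = 0.00152), and the mean of all Eno1 probe sets gave −1.61 (adjusted p = 1.00e-05); the 2 probe sets differ by 3.34, so the sign follows from which are averaged. M54926_at, shared by Ldha, was called under the common median (0.76, adjusted p = 0.000542). Scaling also moved the whole array: the median difference was 0.09 with quantile normalization, −0.23 as deposited and 0.27 with a common median, and 48.1%, 58.4% and 42.6% of calls were lower in pineal, while the members split 7 lower and 2 higher, 7 and 2, and 7 and 3.

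With array quality weights, the number of member genes called in the retina was 4 for CT12 against CT6, 4 for CT12 against ZT12, 1 for hour 12 against hour 6, 3 for CT against ZT and 2 for the difference between time effects, against 0 without weights. The weight estimation did not converge in the retina fit and gave CT12 array 2 a weight of 48.5, against at most 1.70 for any other array, and 48.1%, 49.0%, 27.3%, 19.6% and 26.1% of all probe sets were called, so these calls rest mainly on 1 CT12 array and are not used. Leaving out 1 array gave 0 to 3 genes for CT12 against CT6 and 0 to 2 for CT12 against ZT12, the highest without CT12 array 3, which leaves CT12 array 1 as 1 of 2 and where 24.8% and 20.4% of all probe sets were called. With the title numbers added as replicate block, 0 member genes were called in each of the 7 comparisons. Of 18 same-number pairs, 5 correlated above 0.1, and 5 of 12 arrays correlated best with their own number. These values cannot show if arrays of the same number share animals or batches.

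The Aldoc to Aldoa ratio is not read for stability, since Aldoa was under the filter limit on all pineal arrays. The Ldhb ratio to M54926_at was 0.41 as deposited (adjusted exact permutation p = 0.00391), and by construction the same under a common median. It was 0.48 with the mean of probe sets (0.00781) and between 0.075 and 0.301 with 1 array left out, where it passed without retina CT12 array 1 (0.24, 0.0365). The cause of these changes was not tested. The planned Eno2 to Eno1 ratio was not run, because no probe set was annotated to Eno2.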
